A study of Mus musculus with 26 samples.

Results

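The 6 actin genes of the mouse, Acta1, Actc1, Acta2, Actg2, Actb and Actg1, were followed in hearts after transverse aortic constriction (TAC), in which a ligature round the aortic arch makes the heart eject against a higher pressure, and in hearts after sham surgery. A probe set belonged to the actins if the platform annotation gave it 1 of these genes as its only gene, with the array's control probe sets left out. This gave 8 probe sets of 12422, or 6 of the 8251 genes that a probe set names alone: 1 each for Acta1, Acta2, Actg2 and Actg1, and a pair each for Actc1 and Actb. All 8 passed the filter on low values, with an intensity above the pooled median of 880.1 in each of the 26 arrays, and all were tested among 7297 probe sets.

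The arrays held total RNA of mouse heart in 6 groups: 5 TAC and 4 sham arrays at 48 h, 4 TAC and 4 sham arrays at 10 d, and 5 TAC and 4 sham arrays at 3 wk. No genetic change or drug is named for any group, the animals' strain, sex and age are not given in the labels, and the chamber of the heart that was taken is not stated. The labels do not say that each array had its own animal, so the p-values measure the spread between these arrays, which may be technical. In whole tissue, fewer cells of a type and less of a transcript per cell cannot be told apart.

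Actin is the protein that polymerises into the thin filaments of muscle and into the cytoskeleton of every cell. Acta1 (skeletal muscle alpha-actin) and Actc1 (cardiac alpha-actin) make up the thin filaments of the sarcomere; the adult mouse heart uses mainly the cardiac form, and re-expression of the skeletal form in overloaded hearts is a textbook sign of the fetal gene programme. Acta2 (vascular smooth muscle alpha-actin) and Actg2 (enteric smooth muscle gamma-actin) are the smooth muscle forms, and Acta2 is also made by myofibroblasts. Actb and Actg1 are the cytoplasmic beta- and gamma-actins, found in all cells and abundant in non-muscle cells. Many actin genes are switched on by serum response factor, which binds the CArG box, a short site that starts with CC, ends with GG and has only A and T between them.

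The 250 bases before the start site were available for 4 of the 6 genes, Acta1, Actc1, Acta2 and Actg1, in a table of RefSeq promoters on GRCm38.p6. They are shown because serum response factor is the regulator these genes are best known for. Capitals mark CArG boxes, both exact ones and those with 1 inner base that is not A or T. Each sequence runs 5′ to 3′ on the gene's strand and ends at the base before the start site. The 4 regions are chr8:123894776-123895025, chr2:114052876-114053125, chr19:34255374-34255623 and chr11:120348496-120348745, in the order of the lines, all on the minus strand.
Acta1: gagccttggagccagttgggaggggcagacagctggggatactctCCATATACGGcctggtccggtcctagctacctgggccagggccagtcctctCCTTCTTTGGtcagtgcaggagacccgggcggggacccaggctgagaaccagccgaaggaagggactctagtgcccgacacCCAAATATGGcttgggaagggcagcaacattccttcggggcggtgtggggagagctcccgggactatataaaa
Actc1: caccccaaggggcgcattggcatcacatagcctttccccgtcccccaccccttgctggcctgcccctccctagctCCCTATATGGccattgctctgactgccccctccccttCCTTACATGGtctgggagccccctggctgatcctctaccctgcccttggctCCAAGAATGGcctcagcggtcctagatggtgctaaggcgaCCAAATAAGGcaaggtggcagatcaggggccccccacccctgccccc
Acta2: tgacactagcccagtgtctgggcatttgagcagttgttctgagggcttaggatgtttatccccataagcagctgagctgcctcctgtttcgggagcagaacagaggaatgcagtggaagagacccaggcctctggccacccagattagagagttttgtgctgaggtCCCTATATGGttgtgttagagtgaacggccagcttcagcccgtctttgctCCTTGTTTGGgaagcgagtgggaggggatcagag
Actg1: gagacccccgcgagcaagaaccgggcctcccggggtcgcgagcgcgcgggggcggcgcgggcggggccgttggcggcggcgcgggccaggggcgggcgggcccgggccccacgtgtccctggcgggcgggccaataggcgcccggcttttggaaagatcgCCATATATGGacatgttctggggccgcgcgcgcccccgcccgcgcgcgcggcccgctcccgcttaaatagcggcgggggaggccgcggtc

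Acta1, Actc1 and Actg1 each held 1 exact CArG box. It lay 73 to 64 bases before the start site in Acta1, 47 to 38 bases before it in Actc1 and 90 to 81 bases before it in Actg1. Acta1 held 2 further boxes with 1 inner base changed, Actc1 held 3, and Acta2 held 2 and no exact box. The site reads the same in form on both strands, so 1 search covered both. Of 32851 promoters in the table, searched over the same 250 bases, 482 (1.47%) held an exact box, and 2823 (8.59%) held an exact box or one with a single inner base changed. These matches describe the letters only, and no binding was measured.

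The values were the intensities of the deposited table, 1 per probe set and array, given below in k, with 1 k for 1000 intensity units. Log2 differences are TAC minus sham from a limma model with 1 mean per group and an intensity trend, each with its SE. The Benjamini-Hochberg adjustment of p-values ran over all 7297 probe sets, and a call is an adjusted p under 0.05. The intensities of different probe sets are not on a common scale, so levels are set side by side for 1 probe set at a time. Probe sets whose names end in f_at, s_at or i_at did not meet the platform's full rule for probes unique to 1 sequence. The pairs are told apart here by these endings (i_at and f_at for Actc1, s_at and f_at for Actb). The actin coding sequences are close to each other. Signal of one actin in the probe set of another was not tested, and the values of Actg2, both Actc1 probe sets and both Actb probe sets are uncertain in that respect.

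All 48 h arrays carry 1 scan day in their array files. At 10 d, TAC replicate 4 was scanned on another day than the remaining 7 arrays. At 3 wk, TAC replicates 1, 2 and 3 and sham replicates 2 and 3 shared a day, while TAC replicates 4 and 5 came from a different one and the files used here give no day for sham replicates 1 and 4. No known day held more than 1 duration, so effects of duration and of scan day cannot be told apart. All 9 ventricular muscle markers on the array, among them Myh6, Myl2 and Tnni3 passed the filter on low values. The 5 atrial markers on the array summed to 10.2 to 328 k in TAC arrays at 48 h and to 7.78 to 21.6 k in the sham arrays. They summed to 15.3 to 142 k in TAC and 11.1 to 129 k in sham arrays at 10 d, and to 27.0 to 233 k in TAC and 81.1 to 233 k in sham arrays at 3 wk. The members of this sum did not move together. At 3 wk Myl4, Myl7 and Bmp10 had log2 differences of -1.9, -2.3 and -1.8, with SEs of 1.4, 1.4 and 0.8. Nppa had log2 differences of 1.17 at 48 h, 1.21 at 10 d and 0.26 at 3 wk. None of the 4 atrial markers tested was called at any duration. The part of atrial tissue in the actin values was not tested.

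Acta1 was higher in TAC hearts at all 3 durations, and the difference passed the test at 10 d and at 3 wk, with signals of 2.10 and 2.11 times those of sham hearts. At 10 d Actg1 and 1 of the Actb probe sets also rose, and the other Actb probe set missed the threshold. Neither probe set of Actc1, nor Acta2 or Actg2, passed at any duration. No actin probe set fell after constriction in a difference that passed the test. The plot of differences by duration shows all 8 probe sets.

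**Figure D1:**
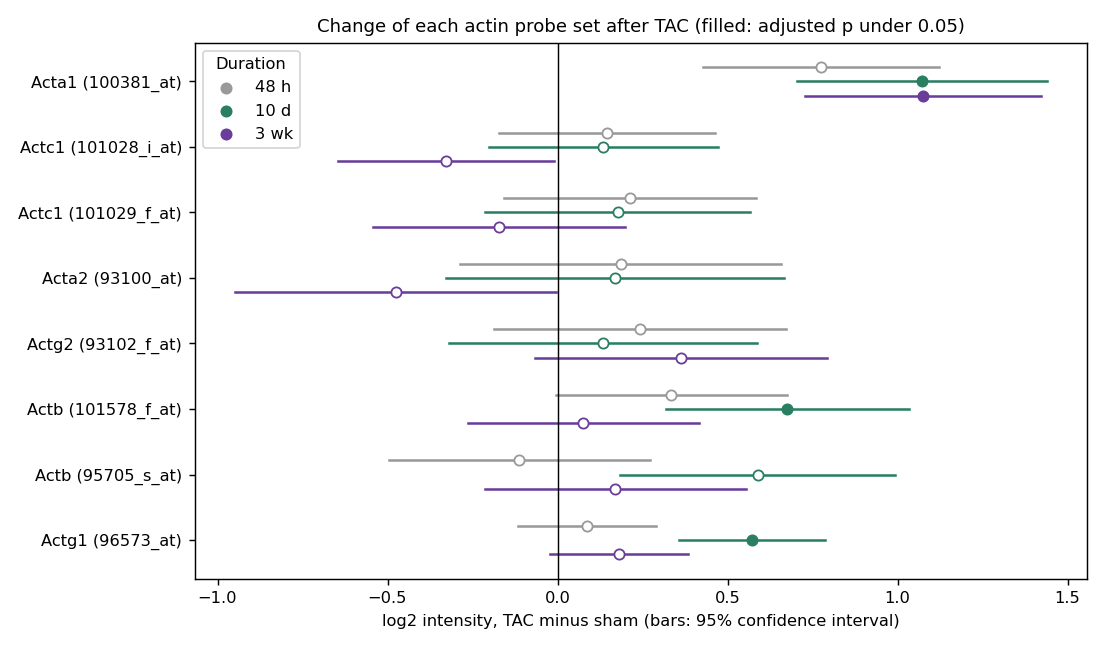
Log2 difference of TAC minus sham (horizontal axis) for each of the 8 actin probe sets at 48 h (grey), 10 d (green) and 3 wk (purple), with 95% confidence intervals from the limma model as bars. Filled points passed at an adjusted p under 0.05: Acta1 at 10 d and 3 wk, Actg1 at 10 d and 1 of 2 Actb probe sets at 10 d.

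At 48 h, 0 of the 8 actin probe sets were called, against 4 of 7297 probe sets in all (0.0548%), and limma's unadjusted p was under 0.05 for 1 of the 8 and for 450 of all probe sets. At 10 d, 3 of the 8 were called, all higher in TAC, against 4.87% of all probe sets called in either direction and 2.91% called higher. At 3 wk, 1 of the 8 was called, higher in TAC, against 4.73% called in either direction and 2.99% called higher. The median difference of the 8 was 0.20 at 48 h, 0.37 at 10 d and 0.12 at 3 wk, beside -0.01, -0.02 and -0.01 over all probe sets tested. TAC and sham arrays did not overlap for 1 actin probe set at 48 h, 4 at 10 d and 2 at 3 wk, of 8 each. Over all probe sets tested, 2.29%, 15.7% and 8.48% did not overlap at these durations. The actin genes were chosen with earlier results of these data known, so these counts are descriptions only.

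Acta1, the skeletal muscle alpha-actin, gave 131, 118, 181, 144 and 106 k in the TAC arrays at 48 h, against 73.7, 94.5, 77.6 and 69.2 k in the sham arrays. All 5 TAC arrays lay above all 4 sham arrays. The log2 difference was 0.77 ± 0.17 (SE), a 1.71-fold higher signal with a 95% interval of 1.34 to 2.18, and its adjusted p was 0.127. It ranked at place 6 of 7297 by p at this duration. It passed the threshold under 2 of 13 other settings, quantile normalization (adjusted p = 0.0171) and scan day as a block (adjusted p = 0.0406, with sham replicates 1 and 4 of 3 wk left out of the fit), and without TAC replicate 5 (adjusted p = 0.0481).

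At 10 d Acta1 gave 117, 72.0, 101 and 166 k in TAC hearts, against 56.2, 43.4, 53.5 and 55.6 k in sham hearts. The lowest TAC array again lay above the highest sham array, and the TAC arrays spread more widely than the sham arrays. The log2 difference was 1.07 ± 0.18 (SE), or 2.10-fold (95% interval 1.63 to 2.71), with an adjusted p of 5.47e-04 in limma. The highest value was that of TAC replicate 4, the 10 d array scanned on another day. Within the day shared by the other 10 d arrays the log2 difference was 0.87 with an adjusted p of 6.22e-03. An unmoderated test per probe set did not call it (adjusted p = 0.168).

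At 3 wk Acta1 gave 118, 90.4, 107, 107 and 119 k in TAC hearts, against 48.5, 53.1, 46.9 and 56.9 k in sham hearts. The groups were farther apart than the range within either of them. The log2 difference was 1.07 ± 0.17 (SE), or 2.11-fold (95% interval 1.66 to 2.68), with an adjusted p of 5.18e-04 in limma, place 14 by p of 7297. It was called under all 13 other settings, and with each of the 9 TAC and sham arrays of 3 wk left out. Within the shared scan day the difference was 1.07.

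The order of the Acta1 group means on the log2 scale was TAC 48 h (17.03 ± 0.29 SD, n = 5), TAC 10 d (16.73 ± 0.50, n = 4), TAC 3 wk (16.72 ± 0.16, n = 5), sham 48 h (16.25 ± 0.19, n = 4), sham 10 d (15.66 ± 0.17, n = 4) and sham 3 wk (15.64 ± 0.13, n = 4). The 3 TAC groups lay within 1 SD of TAC 10 d of each other, and sham 10 d and sham 3 wk lay within 1 SD of each other. The plot of actin levels by array shows this order, with the TAC points of Acta1 above the sham points at each duration.

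**Figure D2:**
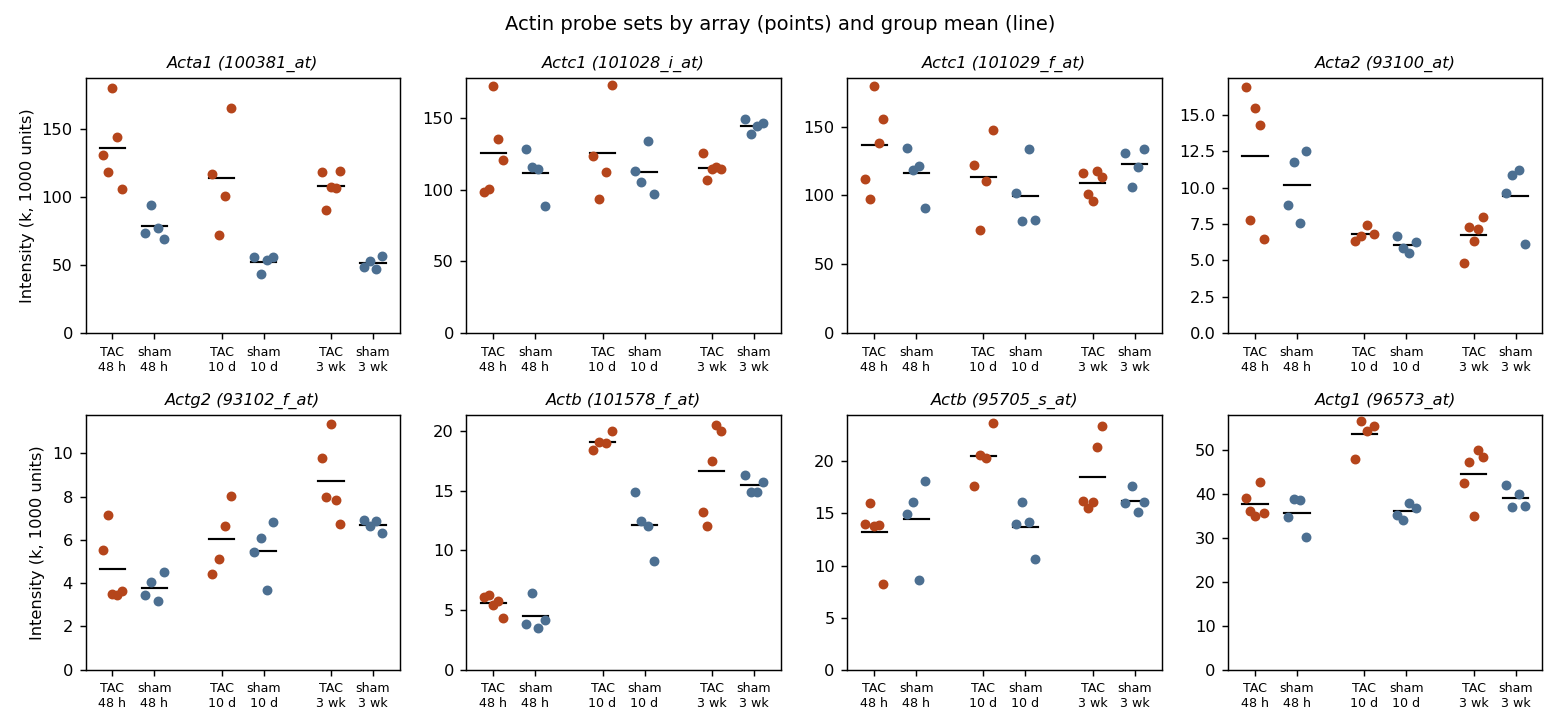
Intensity in k (1000 units, axes starting at 0 and scaled to each probe set) of each actin probe set in every array, by duration, with TAC (orange-red) left of sham (blue) and the line at the group mean. Acta1 lies higher in TAC than in sham at all 3 durations with no overlap, from 106 to 181 k in TAC hearts and 69.2 to 94.5 k in sham hearts at 48 h, while the Actc1 points of both groups overlap at 48 h and 10 d.

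Actc1, the main actin of the adult cardiac sarcomere, did not pass at any duration. Its i_at probe set gave 98.6, 101, 173, 136 and 121 k in TAC hearts at 48 h, against 129, 116, 115 and 88.8 k in sham hearts. At 10 d it gave 124, 94.0, 113 and 174 k in TAC hearts, against 113, 106, 134 and 97.5 k in sham hearts. The groups overlapped at both durations, with log2 differences of 0.15 (95% interval -0.17 to 0.46) and 0.13 (-0.20 to 0.47). The 10 d difference changed sign with quantile normalization (-0.033) and within the shared scan day (-0.032).

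At 3 wk Actc1 i_at gave 126, 107, 114, 116 and 115 k in TAC hearts, against 149.8, 139, 145 and 147 k in sham hearts. Every TAC array lay below every sham array. The log2 difference of -0.33 ± 0.15 (SE) had an adjusted p of 0.238, and its 95% interval ran from -0.65 to -0.01. Quantile normalization left a difference of -0.034. With only the 3 wk groups in the fit the adjusted p was 0.0474.

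The second Actc1 probe set, f_at, gave 112, 97.4, 179.8, 138 and 155 k in TAC hearts at 48 h, against 134, 118, 121 and 91.2 k in sham hearts. At 10 d it gave 122, 75.0, 110.2 and 147 k in TAC hearts, against 102, 81.3, 134 and 82.2 k in sham hearts. At 3 wk it gave 116, 101, 96.3, 118 and 113 k in TAC hearts, against 131, 106, 120.3 and 133 k in sham hearts. The groups overlapped at all 3 durations, also at 3 wk, where the other Actc1 probe set did not overlap. Its log2 differences were 0.21, 0.18 and -0.17, with adjusted p from 0.646 to 0.954.

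The ratio of Acta1 to Actc1 within an array compares both sarcomeric actins without the array's own scaling. Since the probe sets differ, the ratio itself is not a ratio of molecules, and only its difference between groups can be read. Acta1 over Actc1 i_at was 1.10 ± 0.166 (SD, n = 5) in TAC hearts at 48 h and 0.71 ± 0.108 (n = 4) in sham hearts, a 1.55-fold difference. At 10 d it was 0.892 ± 0.0874 (n = 4) in TAC hearts and 0.469 ± 0.0802 (n = 4) in sham hearts, a 1.91-fold difference. At 3 wk it was 0.935 ± 0.0709 (n = 5) in TAC hearts and 0.354 ± 0.035 (n = 4) in sham hearts, a 2.64-fold difference.

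The groups did not overlap in this Acta1 to Actc1 ratio at any duration: at 3 wk the TAC arrays lay between 0.843 and 1.04 and the sham arrays between 0.324 and 0.387. Over the other Actc1 probe set the differences were 1.48-fold, 1.86-fold and 2.37-fold, and the groups overlapped at 48 h. These ratios describe unequal change of Acta1 and Actc1 and do not show that either of them stayed the same. No test was run on the ratio.

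**Figure D3:**
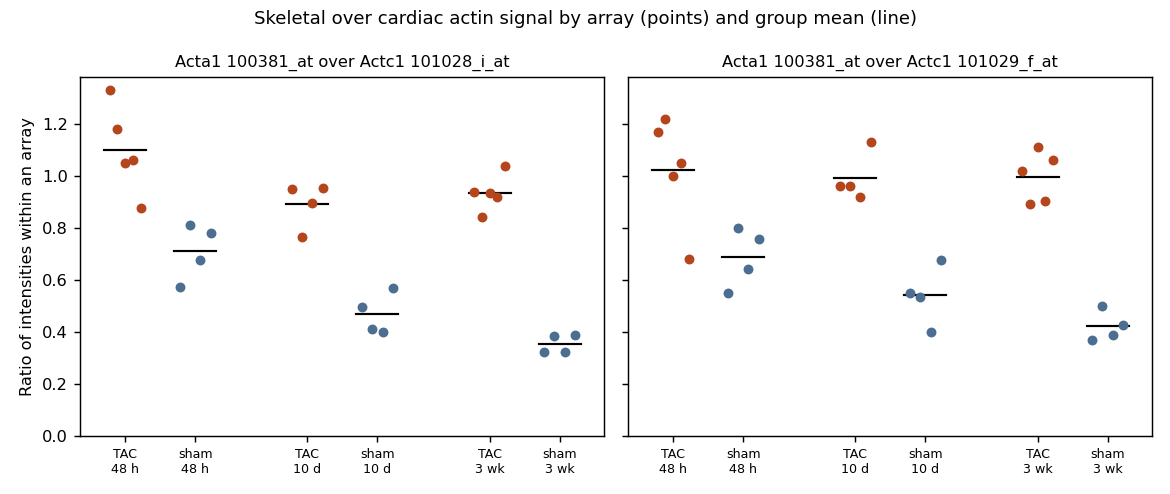
Ratio of the Acta1 intensity to that of Actc1 i_at (left panel) and f_at (right panel) in every array (vertical axis, no unit), by duration, with TAC (orange-red) left of sham (blue) and the line at the group mean. Against i_at all TAC arrays lie above all sham arrays at each duration, and against f_at they overlap at 48 h; the ratio to i_at ran from 0.843 to 1.04 in TAC hearts and 0.324 to 0.387 in sham hearts at 3 wk.

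Within groups, the deviations of Acta1 from the group mean correlated with those of Actc1 at r = 0.74 (i_at) and r = 0.63 (f_at) over 26 arrays. Across all arrays the same correlations were 0.15 and 0.42. The arrays share scan days and the scaling of the table, and these values are a description only. The deviations of both Actc1 probe sets correlated at r = 0.90.

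The smooth muscle actins did not pass at any duration. Acta2 gave 16.9, 7.76, 15.5, 14.3 and 6.44 k in TAC hearts at 48 h, against 8.83, 11.8, 7.59 and 12.5 k in sham hearts. The 10 d values of Acta2 were 6.30, 6.68, 7.43 and 6.83 k in TAC hearts, against 6.67, 5.86, 5.48 and 6.24 k in sham hearts. The 3 wk values of Acta2 were 4.79, 7.31, 6.36, 7.14 and 7.98 k in TAC hearts, against 9.61, 10.8, 11.2 and 6.15 k in sham hearts. The groups overlapped throughout, and at 3 wk 3 sham arrays lay above all TAC arrays.

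The log2 differences of Acta2 were 0.19 ± 0.23 (SE), 0.17 ± 0.24 and -0.48 ± 0.23 at 48 h, 10 d and 3 wk, with adjusted p of 0.973, 0.75 and 0.25. The 3 wk interval ran from -0.95 to -0.004, or from 0.518 to 0.997 as TAC over sham. Within the shared scan day, which leaves out 2 TAC arrays of another day and 2 sham arrays with no known day, the 3 wk difference was -0.863 (adjusted p = 0.242), and with single arrays left out the 48 h difference ran from 0.041 to 0.389. Within the TAC group at 48 h the SD of Acta2 was 0.63 on the log2 scale, against 0.10 in TAC hearts at 10 d.

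Actg2 gave 5.53, 7.15, 3.50, 3.43 and 3.66 k in TAC hearts at 48 h, against 3.43, 4.03, 3.19 and 4.51 k in sham hearts. The 10 d values of Actg2 were 4.42, 5.11, 6.63 and 8.01 k in TAC hearts, against 5.42, 6.07, 3.69 and 6.83 k in sham hearts. At 3 wk it gave 9.80, 8.0, 11.4, 7.82 and 6.72 k in TAC hearts, against 6.90, 6.65, 6.86 and 6.34 k in sham hearts. The groups overlapped at each duration, at 3 wk through TAC replicate 5 alone. The log2 differences were 0.24, 0.13 and 0.36, with adjusted p of 0.958, 0.793 and 0.351.

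Markers of smooth muscle and pericytes were set beside these actins. Of 11 tested, 0 rose at 48 h and at 3 wk, and 1, Des (desmin), rose at 10 d by 0.49 on the log2 scale (adjusted p = 0.0252). Of all probe sets, 0.0548% were called at 48 h, and 2.91% and 2.99% were called higher at 10 d and 3 wk. The summed level of these markers was 33.1 to 49.8 k in TAC hearts at 48 h and 39.6 to 42.7 k in sham hearts. At 10 d it was 46.9 to 52.8 k in TAC hearts and 42.1 to 47.9 k in sham hearts, and at 3 wk 44.2 to 57.5 k in TAC hearts and 39.9 to 50.1 k in sham hearts. Des was the marker of highest level in this list, with group means of 12.96 to 13.56 on the log2 scale, and weighed most in the sum. The median log2 difference of the 11 at 10 d was 0.19, beside -0.02 over all probe sets tested. The part of smooth muscle and pericytes in the values of Acta2 and Actg2 was not tested.

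Actg1, the cytoplasmic gamma-actin, rose at 10 d. It gave 47.9, 56.7, 54.5 and 55.6 k in TAC hearts, against 35.3, 34.2, 38.1 and 36.8 k in sham hearts. All TAC arrays lay above all sham arrays, and both groups were narrow. The log2 difference was 0.57 ± 0.10 (SE), or 1.49-fold (95% interval 1.28 to 1.72), with an adjusted p of 1.55e-03 in limma. Within the shared scan day the difference was 0.55. It stayed called under 12 of 13 other settings and with each array left out, and was lost with an unmoderated test per probe set (adjusted p = 0.0555).

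At 48 h Actg1 gave 39.0, 36.2, 34.9, 42.9 and 35.8 k in TAC hearts, against 34.8, 38.8, 38.6 and 30.3 k in sham hearts. At 3 wk it gave 42.6, 47.2, 35.1, 50.02 and 48.4 k in TAC hearts, against 42.2, 37.1, 40.1 and 37.2 k in sham hearts. The groups overlapped at both durations, at 3 wk through TAC replicate 3, which was the lowest of all. The log2 differences were 0.09 (adjusted p = 0.97) and 0.18 (adjusted p = 0.32).

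Actb, the cytoplasmic beta-actin, was measured by 2 probe sets, of which f_at passed at 10 d. It gave 18.4, 19.0, 18.9 and 19.96 k in TAC hearts at 10 d, against 14.9, 12.5, 12.0 and 9.08 k in sham hearts. The TAC arrays were close together and above all sham arrays. The log2 difference was 0.68 ± 0.17 (SE), or 1.60-fold (95% interval 1.25 to 2.05), with an adjusted p of 0.0226 in limma. This call was lost in 3 of 13 other settings, with no filter (adjusted p = 0.0524), within the shared scan day (adjusted p = 0.0502) and with an unmoderated test (adjusted p = 0.17). It was also lost when TAC replicate 2, 3 or 4 or sham replicate 4 was left out, with an adjusted p of 0.0546 to 0.099.

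Actb s_at gave 17.6, 20.6, 20.3 and 23.7 k in TAC hearts at 10 d, against 13.9, 16.1, 14.2 and 10.6 k in sham hearts. The groups did not overlap here either. The log2 difference was 0.59 ± 0.20 (SE), or 1.5-fold (95% interval 1.14 to 1.99), with an adjusted p of 0.0806. It passed with array weights (adjusted p = 0.0467) and with only the 10 d groups in the fit (adjusted p = 0.0245).

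At 48 h Actb f_at gave 6.12, 6.22, 5.40, 5.73 and 4.35 k in TAC hearts, against 3.87, 6.44, 3.52 and 4.19 k in sham hearts. The s_at probe set gave 14.0, 16.0, 13.8, 13.9 and 8.25 k in TAC hearts, against 15.0, 16.1, 8.61 and 18.1 k in sham hearts. Both overlapped between groups, with log2 differences of 0.33 and -0.11. At 3 wk f_at gave 13.2, 12.0, 17.5, 20.5 and 19.98 k in TAC hearts, against 16.3, 14.9, 14.9 and 15.7 k in sham hearts. The s_at probe set gave 16.2, 15.5, 16.1, 21.3 and 23.4 k in TAC hearts, against 16.0, 17.7, 15.1 and 16.1 k in sham hearts.

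At 3 wk the highest values of both Actb probe sets were those of TAC replicates 4 and 5. They shared a scan day with no other array of known day. The log2 differences over all arrays were 0.08 and 0.17, and within the shared scan day they were -0.081 and -0.037. None of these differences passed.

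Markers of cells other than muscle also rose at 10 d, when 2.91% of all probe sets tested were called higher. The marker lists were chosen with earlier results of these data known, so their counts are descriptions only. Of the macrophage markers 7 of 9 tested rose at 10 d, and their summed level was 63.1 to 69.4 k in TAC hearts and 44.6 to 47.0 k in sham hearts. Of the endothelial markers 4 of 8 rose, with sums of 44.3 to 53.1 k in TAC hearts and 29.56 to 32.97 k in sham hearts. Of the fibroblast and myofibroblast markers 5 of 12 rose, with sums of 194 to 249 k in TAC hearts and 129.5 to 144 k in sham hearts. None of these markers fell in a difference that passed, and none on the array was at the floor of the values in all arrays. The largest changes of each set at 10 d were those of Lyz2 (lysozyme of macrophages), Cldn5 (an endothelial tight junction protein) and Postn (periostin, made by activated fibroblasts). They were higher by 0.80, 1.31 and 2.90 on the log2 scale. Other members were lower in TAC hearts, none of them called. Among the fibroblast markers these were Vim (-0.77), Col1a2 (-0.39) and Pdgfra (-0.007), and among the endothelial markers Vwf (-0.19) and Kdr (-0.08).

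At 48 h 0 of these marker genes rose, where only 4 of 7297 probe sets in all were called (0.0548%). At 3 wk 4 of 9 macrophage, 1 of 8 endothelial and 6 of 12 fibroblast markers rose, beside 2.99% of all probe sets called higher. The part of these cells in the Actg1 and Actb values was not tested.

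Acta1 is also the main actin of skeletal muscle, so markers of that tissue were set beside it. Of 13 listed genes, 12 were on the array and 8 were tested, and only Casq1 (skeletal calsequestrin, a calcium store protein) rose, by 0.67 at 10 d and 0.72 at 3 wk on the log2 scale (adjusted p = 6.96e-03 and 3.01e-03). Over all probe sets tested, 2.91% and 2.99% were called higher at these durations. The 4 that failed the filter, Tnnt3, Tnni2, Myh1 and Myh2, had group means of 7.39 to 7.98 on the log2 scale, where the floor was 7.39. The summed level of the 12 was 120.3 to 182 k in TAC hearts and 128 to 149.9 k in sham hearts at 48 h. It was 94.2 to 133 k in TAC hearts and 97.7 to 129 k in sham hearts at 10 d, and 84.5 to 113 k in TAC hearts and 108 to 123 k in sham hearts at 3 wk. Eno3, the muscle enolase, was the listed marker of highest level, with group means of 15.96 to 16.63 on the log2 scale, and weighed most in the sum. It was not called, with log2 differences of -0.14 at 10 d and -0.42 at 3 wk. The part of that tissue in the Acta1 values was not tested.

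Whether the response of an actin differed between durations was tested as a difference of log2 differences. No actin probe set passed in any of the 3 comparisons. For the 10 d response minus the 48 h response, 0.0959% of all probe sets passed, and the largest actin values by p were Actg1 (0.48, 95% interval 0.19 to 0.78, adjusted p = 0.188) and Actb s_at (0.70, 0.14 to 1.26, adjusted p = 0.35). For the 3 wk response minus the 10 d response, 0.0274% of all passed, and Actg1 had -0.39 (-0.69 to -0.09, adjusted p = 0.483) and Actb f_at -0.60 (-1.09 to -0.11, adjusted p = 0.504). For 3 wk minus 48 h, 0% passed, and Actc1 i_at had -0.47 (adjusted p = 0.421).

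For Acta1 the 10 d response minus the 48 h response was 0.30 (95% interval -0.21 to 0.80), and the 3 wk response minus the 10 d response was 0.003 (-0.50 to 0.51). By these intervals the Acta1 response at 3 wk could be up to 0.51 above or 0.50 below that at 10 d. At an unadjusted p under 0.05 in limma, 2, 3 and 1 actin probe sets passed in the 3 comparisons, beside 770, 612 and 820 of all probe sets. No known scan day held more than 1 duration, and effects of scan day cannot be told apart from those of duration in these differences.

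Sham arrays themselves differed between durations. No known scan day held more than 1 duration, so effects of duration and of scan day cannot be told apart in these differences. Sham 10 d against sham 48 h gave 3 called actin probe sets of 8, against 21.7% of all probe sets, and sham 3 wk against sham 48 h gave 3, against 33.3%. Sham 3 wk against sham 10 d gave 0, against 2.86%. These sham comparisons share arrays with each other and with the TAC comparisons.

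In sham hearts Acta1 was lower at 10 d than at 48 h, with a log2 difference of -0.59 (adjusted p = 0.0185), and lower at 3 wk than at 48 h, with one of -0.61 (adjusted p = 0.0102). The 10 d and 3 wk arrays, from 43.4 to 56.9 k, lay below all 48 h sham arrays, whose lowest value was 69.2 k. The 10 d call for Acta1 was lost without sham 48 h replicate 2 (adjusted p = 0.0684) and without sham 10 d replicate 2 (0.0678). Acta2 was lower in sham hearts at 10 d than at 48 h, with a log2 difference of -0.72 (adjusted p = 0.0331), a call lost with quantile normalization (0.0511), with no filter (0.0733), and without sham 48 h replicate 2 or 4 or sham 10 d replicate 2, 3 or 4 (0.0539 to 0.101). Actg2 was higher in sham hearts at 3 wk than at 48 h by 0.83 (adjusted p = 5.14e-03), and with each array centred on its median by 0.50 (adjusted p = 0.0695). Median centring moved the median difference of all probe sets in that comparison to -0.25, against 0.09 with the values as deposited.

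Actb f_at was higher in sham hearts at 10 d than at 48 h by 1.45 (adjusted p = 2.29e-06), and at 3 wk than at 48 h by 1.82 (adjusted p = 4.71e-08), on the log2 scale. Both calls held under all 10 other settings and with each array left out. The s_at probe set of the same gene differed by -0.04 (95% interval -0.44 to 0.37) and 0.22 (-0.18 to 0.62) in these comparisons and was not called. Its ratio to the other shows the same split. The ratio of f_at to s_at was 0.388 to 0.528 in TAC hearts and 0.231 to 0.409 in sham hearts at 48 h, and 0.773 or more in every array at 10 d and 3 wk.

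The array also carries 3 control probe sets for Actb, at the 3′ end, the middle and the 5′ end of the transcript. They were left out of the tests. The 3′ control gave 27.8 to 74.4 k in TAC hearts and 19.6 to 36.7 k in sham hearts at 48 h. It gave 76.6 to 131 k in TAC hearts and 73.3 to 93.6 k in sham hearts at 10 d, and 58.7 to 82.3 k in TAC hearts and 56.1 to 85.5 k in sham hearts at 3 wk. Like f_at, it was lower at 48 h, in all but TAC replicate 4, than in any array of the later durations. The same held for the middle and 5′ controls, again in all but TAC replicate 4. The middle control gave 12.2 to 51 k at 48 h and 28.5 k or more later. The 5′ control gave 24.5 to 66.2 k at 48 h and 53.2 k or more later. At 10 d TAC and sham arrays overlapped in all 3 controls, unlike in f_at and s_at. The middle control gave 82.3 to 142 k in TAC hearts and 60.6 to 93.6 k in sham hearts at 10 d. The 5′ control gave 53.2 to 164 k in TAC hearts and 66.1 to 95.6 k in sham hearts.

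Across the 26 arrays the Actb 3′ control correlated with f_at at r = 0.86 and with s_at at r = 0.43. For the middle control these values were 0.77 and 0.40, and for the 5′ control 0.82 and 0.41. As deviations from the group means they were 0.30 and 0.09 for the 3′ control. For the middle control they were 0.16 and 0.08, and for the 5′ control 0.07 and 0.02. These are descriptions over arrays that share scan days. The ratio of 3′ to 5′ control signal, a sign of RNA integrity, had group medians from 0.793 (sham 48 h) to 1.03 (TAC 10 d). The plot of Actb probe sets by array shows s_at values at 48 h that overlap those of later durations, beside f_at values at 48 h that do not.

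**Figure D4:**
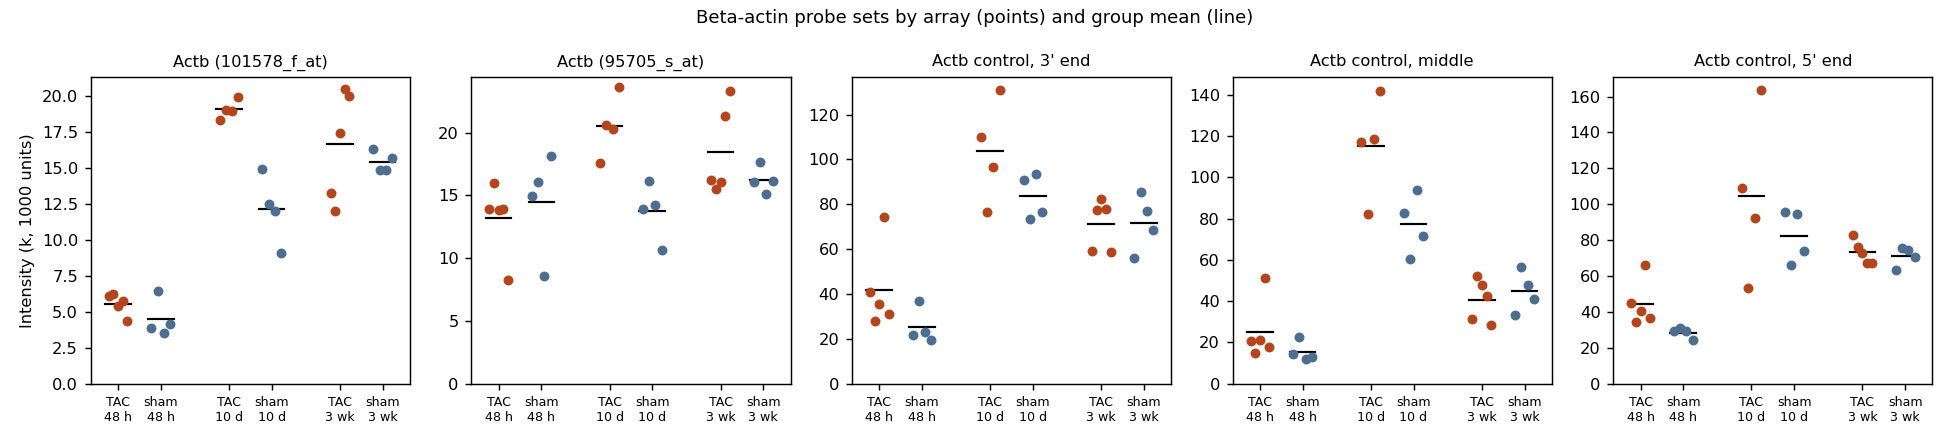
Intensity in k (1000 units, axes starting at 0 and scaled to each probe set) of the Actb probe sets ending f_at and s_at and of the 3 Actb control probe sets in every array, by duration, with TAC (orange-red) left of sham (blue) and the line at the group mean. The f_at probe set lies at 3.52 to 6.44 k at 48 h and at 9.08 to 20.5 k later, while s_at spans 8.25 to 18.1 k at 48 h and 10.6 to 23.7 k later.

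For each actin the 4 genes whose log2 values correlated best with it over the 26 arrays were taken, with the correlation of deviations from group means beside it. These are descriptions, since arrays share groups, scan days and scaling. The choice also used the TAC and sham arrays, so a change after TAC like that of the actin is in part built into it. The changes of these genes given below therefore add no separate support. For Acta1 they were Casq1 (r = 0.84, within groups 0.26), Fhl1 (0.78, 0.09), a LIM domain protein of striated muscle, Vkorc1 (0.76, 0.15), an enzyme of the vitamin K cycle, and Fbln2 (0.76, 0.04), a matrix glycoprotein. The likeness to Acta1 was thus mostly between groups. For Actg1 they were Col4a1 (0.91, 0.69), a basement membrane collagen, Tmsb10 (0.90, 0.61), which binds actin monomers, Tagln2 (0.89, 0.77), an actin-bundling protein, and Cd93 (0.89, 0.55), an endothelial surface receptor. These stayed correlated with Actg1 within groups.

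Fhl1 rose by 1.24 at 10 d and 1.31 at 3 wk on the log2 scale (adjusted p = 1.78e-03 and 9.47e-04), beside 1.07 at both durations for Acta1. Fbln2 rose by 1.27 and 1.25 at these durations, and Vkorc1 was called at 3 wk only, with 0.47 (adjusted p = 0.0162). Col4a1 rose by 1.31 and 0.80 at 10 d and 3 wk, Tmsb10 by 1.11, Tagln2 by 0.56 and Cd93 by 1.11 at 10 d, beside 0.57 for Actg1 at 10 d. For Actc1 i_at the 4 genes were Rplp0 (0.87, within groups 0.88), a ribosomal protein, Myh6 (0.86, 0.86), the main myosin heavy chain of the adult mouse heart, Tpt1 (0.86, 0.90) and Atp5a1 (0.84, 0.88), a subunit of the ATP synthase. None of these 4 passed at any duration.

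For Actc1 f_at the 4 nearest were Tnni3 (0.94, within groups 0.95), the cardiac inhibitory troponin, Tpt1 (0.93, 0.93), Mybpc3 (0.93, 0.94), cardiac myosin-binding protein C, and Hba-a1 (0.91, 0.93), an alpha-globin. For Acta2 they were Antkmt (0.78, 0.62), P3h4 (0.75, 0.83), Rpl8 (0.72, 0.49) and Pdha1 (0.72, 0.42), none a smooth muscle marker of the list used here. For Actg2 they were Tnip1 (0.85, 0.60), H2-Bl (0.83, 0.50), Krt36 (0.82, 0.56) and Cel (0.82, 0.67). For Actb f_at they were Ddx6 (0.92, 0.48), Snrpg (0.92, 0.30), Nid1 (0.92, 0.41) and Ik (0.92, 0.56), and for Actb s_at Lgmn (0.79, 0.62), Faap20 (0.75, 0.56), Septin4 (0.75, 0.51) and Dhodh (0.75, 0.65).

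Proteins that share the filament with actin were counted from a list of 24 genes of the thin filament and its ends, of which 17 were tested. None was called at 48 h, 1 rose at 10 d and 2 at 3 wk, and none fell. Over all probe sets tested, 0.0548% were called at 48 h, and 2.91% and 2.99% were called higher at 10 d and 3 wk. Tmod3, a tropomodulin that caps the pointed end of actin filaments, rose by 0.42 at 10 d (adjusted p = 0.0135) and by 0.57 at 3 wk (adjusted p = 9.47e-04). Its probe set ends in f_at, and signal of related genes in it was not tested. Tmod1 and Tmod2 had no probe set of their own. Tpm4, a cytoskeletal tropomyosin, rose by 0.58 at 3 wk (adjusted p = 0.019). Both belong mainly to the non-muscle cytoskeleton, and no cardiac troponin or cardiac actinin of the list was called. The median difference of the list was 0.07, 0.19 and 0.02 at 48 h, 10 d and 3 wk. The medians over all probe sets tested, for this list and those below, were -0.01, -0.02 and -0.01.

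Of 26 genes that bind actin monomers or turn filaments over, 20 were tested. None was called at 48 h, 3 rose at 10 d and 2 at 3 wk, and none fell. Of all probe sets, 0.0548% were called at 48 h, and 2.91% and 2.99% were called higher at 10 d and 3 wk. At 10 d Tmsb10 rose by 1.11 and Tmsb4x by 0.68 on the log2 scale (adjusted p = 1.95e-04 and 3.96e-03), both thymosins that sequester actin monomers, and Cfl1, the non-muscle cofilin that severs filaments, rose by 0.58 (adjusted p = 3.07e-04). At 3 wk Enah, which promotes filament elongation, rose by 0.68 (adjusted p = 4.78e-03). The other gene called at 3 wk, Actr3, a subunit of the Arp complex that branches filaments, rose by 0.43 (adjusted p = 0.0344) and is named after its value was seen. The median difference of the list was 0.12, 0.30 and 0.23.

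Of 22 genes for serum response factor, its cofactors and textbook targets, 18 were tested, and Srf itself was not among them. None was called at 48 h, 4 rose and 1 fell at 10 d, and 1 rose and 1 fell at 3 wk. Of all probe sets, 0.0548% were called at 48 h, and 4.87% and 4.73% in either direction at 10 d and 3 wk. Those called higher were 2.91% and 2.99%. Egr1, an immediate early gene, rose by 1.00 at 10 d (adjusted p = 0.0267), and Csrp1, a LIM protein of the actin cytoskeleton, rose by 0.83 (adjusted p = 0.0205). Cnn2, a calponin that binds actin filaments, rose by 0.65 at 10 d and 0.70 at 3 wk (adjusted p = 0.0301 and 0.0123). Tagln2 was the fourth gene that rose at 10 d. Hopx, a homeodomain protein that represses transcription by serum response factor, fell by 0.67 at 10 d and by 0.84 at 3 wk (adjusted p = 0.0387 and 7.04e-03). The median difference of the list was 0.06, 0.33 and -0.04.

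Actin is folded by the chaperonin CCT with the help of prefoldin. Of 13 genes for these chaperones and for muscle-specific folding factors, 11 were tested, and 0 were called at 48 h, 10 d or 3 wk. Of all probe sets, 0.0548%, 4.87% and 4.73% were called in either direction at these durations. Smyd1, a muscle methyltransferase needed for sarcomere assembly, had log2 differences of -0.15, -0.11 and -0.39, and Cct5, a subunit of the chaperonin, had -0.01, -0.02 and 0.03. The list's median difference was -0.01, -0.10 and -0.08. For the ventricular muscle markers 1 of 9, Ryr2, was called, lower in TAC at 10 d with a log2 difference of -0.43 (adjusted p = 0.0329), and the median difference of those 9 was 0.07, 0.06 and -0.31. Their summed level at 3 wk was 623 to 726 k in TAC hearts and 739 to 943 k in sham hearts, in the same direction as Actc1 i_at. The part of that shift in the Actc1 values was not tested.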

How the data were processed

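The deposited table holds linear intensity values from 0.4 to 335354.1, with each probe set given once for each array, and the arrays are of type MG_U74Av2 per the file headers. No source used here states how the authors summarised or scaled it. Array means without the outer 2% on either side are 2501.81 to 2502.2, and array medians are 741 to 1031. Values were used as deposited, floored at the 20th percentile (167.9, or 7.39 on the log2 scale) and log2 transformed by the re-analysis, since the deposited values are not log2. A probe set was tested if 4 or more arrays exceeded the pooled median of 880.1, which held for 7297 of 12422, with 66 controls left out. The platform annotation names 1 gene for 10833 probe sets, several for 396 and none for 1193, and 10817 symbols were matched to RefSeq by gene ID.

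One limma model (version 3.58.1 in R 4.3.3; lmFit, eBayes with a trend) estimated 6 group means and was tested on simulated data. The number of arrays limits the precision. A gene stands by its probe set with the highest mean. The text names all actin probe sets, for each the 4 genes of highest correlation over the arrays, and of each gene list up to 4 called genes by size of change, or the 2 of highest level where none was called. The actin genes and all gene and marker lists were chosen with earlier results of these data known, so counts of their called members are descriptions. Same-numbered TAC and sham arrays were checked for pairing: their deviations correlated at -0.13 to 0.03 over 12 pairs, so the numbers were not taken as pairs. Other settings were quantile normalization, median centring, floors at the 5th and 40th percentile, no trend, array weights, a filter at the 70th percentile or none, a fit of the compared groups alone, blocks for replicate number and for scan day, the main scan day alone, an unmoderated unequal-variance test, and each array left out.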

Additional observations from a re-analysis of the deposited data

Results flagged for a closer look

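In the TAC group at 48 h, replicate 5 of the Actb s_at probe set lay far below the other arrays of its group, at 8251.9 intensity units against 13806.4 for the next lowest. The gap made up 0.78 of the group's range on the log2 scale. Such gaps were looked for in 48 groups of values (8 probe sets in 6 groups), and chance alone gives about 1 in 20. Without this array the difference of TAC minus sham for that Actb probe set at 48 h was 0.049, against -0.112 with it, and neither passed.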

How the results depend on the processing

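Over 40 actin log2 differences, 455 values under settings other than leaving out an array kept their direction and their side of the threshold, 8 lost a call, 5 gained one and 12 changed sign. With single arrays left out, 378 values kept both, 11 lost a call, 1 gained one and 19 changed sign. The sign changes were all of differences that were not called. The number of actin probe sets called at 48 h was 1 in place of 0 with quantile normalization and with scan day as a block, and 0 to 1 with single arrays left out, 1 only without TAC replicate 5. At 10 d the number called was 0 in place of 3 with the unmoderated test, and 2 with no filter and within the main scan day. It was 4 with array weights and with only the groups compared, and 2 to 3 with single arrays left out. At 3 wk it was 2 in place of 1 with only the groups compared. For sham 10 d against sham 48 h it was 2 in place of 3 with no filter. With single arrays left out it was 1 to 3, 1 without sham 48 h replicate 2 or sham 10 d replicate 2. For sham 3 wk against sham 48 h it was 4 with quantile normalization and 2 with median centring, in place of 3. With the replicate number as a block the counts at 48 h, 10 d and 3 wk were 0, 3 and 1, as without it, and the replicate block changed no TAC call. For Actc1, i_at at 10 d was -0.033 with quantile normalization, -0.032 with scan day as a block and within the main scan day, and -0.032 to 0.263 with arrays left out, and f_at at 3 wk was 0.121 with quantile normalization. For Actg2 the 10 d difference was -0.014 with scan day as a block and within the main scan day, and -0.046 to 0.272 with arrays left out. For Actb, f_at at 3 wk was -0.081 with scan day as a block and within the main scan day and -0.007 to 0.185 with arrays left out, and s_at at 3 wk was -0.037 in those 2 scan day fits and -0.343 to 0.049 at 48 h with arrays left out. In sham hearts Actb s_at at 10 d against 48 h was 0.061 with quantile normalization and -0.266 to 0.091 with arrays left out, and at 3 wk against 48 h -0.114 with median centring and -0.011 to 0.347 with arrays left out. Acta2 at 3 wk was -0.863 in both scan day fits and -0.67 to -0.36 with arrays left out, and at 48 h 0.041 to 0.389. The Acta1 response at 3 wk minus that at 10 d was -0.196 to 0.205 with arrays left out. The cause of these changes was not tested.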
